A study of Mus musculus with 12 samples.

Results

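The genes described here are 10 members of the bone morphogenetic protein (BMP) pathway in cultured mouse vascular smooth muscle cells: the receptors Bmpr1a, Bmpr1b and Bmpr2, the signal carrier Smad9, the inhibitory SMADs Smad6 and Smad7, and the inhibitor of DNA binding genes Id1, Id2, Id3 and Id4. They were taken by gene name, with earlier results of these data known, and all 10 were found among the 26728 names used from both count tables. RNA was sequenced from primary aortic cells in 4 groups of 3 libraries each: cells with a knockout of the nuclear receptor gene Nr4a3 (KO) and wild-type cells (WT), on day 1 and on day 14 of culture. The protocols give 10 mM beta-glycerophosphate, a phosphate donor used to drive mineral deposition, in the medium of every group, whereas the treatment label names beta-GP for KO and none for WT, so genotype and that label cannot be told apart. The labels do not say which part of Nr4a3 was removed or whether replicates came from different animals or cultures, and p-values therefore cover only the spread among the libraries sequenced, possibly a technical one.

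BMP ligands bring together a type II receptor such as BMPR2 and a type I receptor such as BMPR1A or BMPR1B. The type I receptor phosphorylates SMAD1, SMAD5 or SMAD9, which enter the nucleus with SMAD4 and switch on target genes. The Id genes are classical targets, and their proteins pair with basic helix-loop-helix (bHLH) transcription factors and keep them off DNA. SMAD6 and SMAD7 are induced by the pathway and hold it back. In arteries, mutations of BMPR2 are known from pulmonary arterial hypertension, and BMP signalling is known to take part in vascular calcification.

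Promoters of Smad9, Smad6, Id2, Id3 and Id4 are shown because these genes had the largest differences between groups that ran in a common direction. Each is the 250 bases before the gene's start in RefSeq, read 5′ to 3′ along the gene. Windows of 8 of the 10 members were searched, with none for Id1 and Smad7. Capitals mark matches on either strand of GGCGCC (a GC-rich motif of BMP SMADs), of CAGAC (a SMAD box) or of the spaced BMP-responsive element, in which a GC-rich motif stands at a fixed distance from a SMAD box.
Smad9 promoter, GRCm38.p6 chr3:54755332-54755581, plus strand: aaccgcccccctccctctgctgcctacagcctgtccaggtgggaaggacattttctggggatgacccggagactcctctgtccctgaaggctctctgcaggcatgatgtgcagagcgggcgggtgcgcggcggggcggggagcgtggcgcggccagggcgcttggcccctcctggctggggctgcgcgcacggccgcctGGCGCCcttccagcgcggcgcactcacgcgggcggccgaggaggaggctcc
Smad6 promoter, GRCm38.p6 chr9:64022060-64022309, minus strand: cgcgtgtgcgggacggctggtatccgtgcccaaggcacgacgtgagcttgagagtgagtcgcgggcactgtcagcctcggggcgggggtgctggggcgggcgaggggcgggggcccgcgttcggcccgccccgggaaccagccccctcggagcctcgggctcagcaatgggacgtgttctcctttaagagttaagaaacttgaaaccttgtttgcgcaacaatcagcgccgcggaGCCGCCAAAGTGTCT
Id2 promoter, GRCm38.p6 chr12:25096093-25096342, minus strand: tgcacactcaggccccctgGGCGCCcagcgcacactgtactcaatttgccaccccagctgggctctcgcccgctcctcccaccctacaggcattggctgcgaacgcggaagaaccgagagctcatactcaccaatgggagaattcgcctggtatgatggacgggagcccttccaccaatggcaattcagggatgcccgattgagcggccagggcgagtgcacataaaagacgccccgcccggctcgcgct
Id3 promoter, GRCm38.p6 chr4:136143572-136143821, plus strand: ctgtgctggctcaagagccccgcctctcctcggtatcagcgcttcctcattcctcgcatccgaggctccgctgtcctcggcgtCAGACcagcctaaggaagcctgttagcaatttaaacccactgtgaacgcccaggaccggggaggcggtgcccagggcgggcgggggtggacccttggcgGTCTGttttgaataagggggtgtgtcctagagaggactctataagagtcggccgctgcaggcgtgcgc
Id4 promoter, GRCm38.p6 chr13:48260866-48261115, plus strand: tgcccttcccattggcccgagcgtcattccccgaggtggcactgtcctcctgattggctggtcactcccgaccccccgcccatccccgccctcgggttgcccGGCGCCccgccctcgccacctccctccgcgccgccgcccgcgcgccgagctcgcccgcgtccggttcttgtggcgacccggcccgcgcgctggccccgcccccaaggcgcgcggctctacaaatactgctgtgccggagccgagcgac
GGCGCC occurred once in the windows of Id2, Id4 and Smad9, and also in those of Bmpr1a and Bmpr2, and 9.59% of 32851 windows of that length held it. CAGAC occurred 2 times in the window of Id3 and once in each of 2 of the 3 windows of Bmpr1b, and 42.2% of all windows held it. The spaced element was searched with looser forms of the GC-rich motif and the SMAD box than those spelled out above. Some of its bases were left free, so a match need not hold either motif in full. It occurred once in the window of Smad6, which held neither motif in full, and in 0.511% of all windows. AAAGGTCA, bound by single NR4A receptors, was in none of the windows searched for members and in 1.34% of all windows. GC content of the windows shown ran from 62.8% to 75.6%. The shares of all windows were not matched for GC content, so they are no measure of enrichment in the members. Such matches describe letters only.

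Library totals ran from 13848199 to 30105118 counts. Nr4a3 was lower in KO cells on each day, with 1.89, 2.002 and 2.34 CPM in KO cells, against 4.61, 4.28 and 3.85 CPM in WT cells on day 1 and 34.3, 60.1 and 54.5 CPM in KO cells, against 238, 256 and 217 CPM in WT cells on day 14 (CPM, counts relative to scaled library totals). Its log2 fold change was -1.02 ± 0.21 (SE) on day 1 (edgeR, adjusted p = 0.000855) and -2.27 ± 0.19 on day 14 (adjusted p = 2.6e-05). Over all genes, KO on day 1 and WT on day 14 differed in 1562 genes, 9.78% of those tested (edgeR quasi-likelihood test, adjusted p below 0.05), against 46.4% to 60.8% for the other pairs of groups. This count was 5538 without WT replicate 1 of day 14, and 719, 576, 610 and 747 without KO replicate 1 or 3 of day 1 or WT replicate 2 or 3 of day 14. WT replicate 1 of day 14 stood apart from its group (chi-square per gene 36.1 and 51.5, against 2.91 to 19.6 for all other replicate pairs). If KO and WT were exchanged in 1 of the count tables, every KO effect of that day would change sign, and the genes described below with opposite effects on the days would have effects of the same sign. Nr4a3 was lower in KO in both tables, as the labels have it. By edgeR's test, so were 30.2% of all genes on day 1 and 23.7% on day 14. Nr4a3 in KO on day 14 stood above WT on day 1 by 3.54 ± 0.18 (log2, edgeR, adjusted p = 6.49e-10). An exchange was not tested, and the groups are used as labelled. With WT replicate 1 of day 14 left out, 8 members passed the test of KO against WT on day 14, against 8 with it.

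Of the smooth muscle markers, Acta2 averaged 276 to 1628 CPM over the groups, while Tagln stayed at or below 0.244 CPM, Myh11 at or below 0.574 CPM and Myocd at or below 0.486 CPM, so these defining markers of the labelled cells were almost absent. The list of 10 summed to 2046 to 2077 CPM in KO cells and 1615 to 1653 CPM in WT cells on day 1, and to 3379 to 3855 CPM in KO cells and 1987 to 2523 CPM in WT cells on day 14. Acta2 and Cald1 made up most of this sum. Cald1 had 1190 CPM in KO and 1026 CPM in WT on day 1, and 1751 CPM in KO and 1360 CPM in WT on day 14. Against the sum, Smtn was lower in KO on day 1 (67.2 CPM in KO and 126 CPM in WT) and day 14 (52.3 and 87.4 CPM). Tpm2 was too (104.5 and 179.5 CPM on day 1, 116.5 and 122 CPM on day 14). Endothelial markers, 8 of a list of 10, summed to 5.12 to 6.72 CPM in KO cells and 13.7 to 16.2 CPM in WT cells on day 1, and to 7.48 to 8.54 CPM in KO cells and 9.55 to 10.4 CPM in WT cells on day 14, with Erg at 0 in KO of day 1 and Tie1 at 0 in WT of day 1. Adipocyte markers, 4 of 5, summed to 7.17 to 11.02 CPM in KO cells and 0.0793 to 0.461 CPM in WT cells on day 1, and to 6.96 to 9.49 CPM in KO cells and 12.2 to 21.8 CPM in WT cells on day 14. Adipoq was at 0 in both WT groups. Schwann cell markers, 5 of 5, summed to 6.39 to 8.06 CPM in KO cells and 1.91 to 3.21 CPM in WT cells on day 1, and to 2.33 to 3.77 CPM in KO cells and 4.21 to 7.70 CPM in WT cells on day 14, with Sox10 at 0 in KO of day 1. Macrophage and leukocyte markers, 8 of 9, summed to 44.5 to 57.5 CPM in KO cells and 19.7 to 26.1 CPM in WT cells on day 1, and to 31.8 to 35.6 CPM in KO cells and 44.0 to 72.5 CPM in WT cells on day 14. Ptprc was at 0 in WT of day 1 and Adgre1 in WT of day 14. Adventitial fibroblast markers, 10 of 10, summed to 265 to 391 CPM in KO cells and 605 to 611 CPM in WT cells on day 1, and to 798 to 877 CPM in KO cells and 522 to 716 CPM in WT cells on day 14. Mesothelial markers, 5 of 5, summed to 354 to 362 CPM in KO cells and 399.7 to 408 CPM in WT cells on day 1, and to 78.4 to 82.2 CPM in KO cells and 269.5 to 412 CPM in WT cells on day 14, with Upk3b at 0 in all groups but WT of day 1. The adipocyte, Schwann cell and macrophage sums were higher in KO on day 1 and lower in KO on day 14, as the Id genes described below were, and the fibroblast sum had the opposite directions. Single genes made up most of several sums. Fabp4 did so for the adipocyte sum (9.39 CPM in KO and 0.198 CPM in WT on day 1, 8.08 CPM in KO and 16.8 CPM in WT on day 14). Cd68 did so for the macrophage sum (48.6 CPM in KO and 21.9 CPM in WT on day 1, 30.7 CPM in KO and 57.9 CPM in WT on day 14). For the fibroblast sum it was Ly6a (203 CPM in KO and 390 CPM in WT on day 1, 624 CPM in KO and 527 CPM in WT on day 14). For the mesothelial sum it was Msln (340 CPM in KO and 335 CPM in WT on day 1, 77.0 CPM in KO and 346 CPM in WT on day 14). For the endothelial sum it was Cdh5 (3.70 CPM in KO and 14.1 CPM in WT on day 1, 6.59 CPM in KO and 6.03 CPM in WT on day 14). Csf1r was higher in KO on day 14 (2.80 CPM in KO and 1.07 CPM in WT). The fibroblast markers Cd34 (7.53 CPM in KO and 39.3 CPM in WT) and Dcn (8.48 CPM in KO and 23.3 CPM in WT) were lower in KO on day 14, against the direction of their sum. Their part in the results was not tested. In bulk RNA, fewer cells of a type and less RNA per cell cannot be told apart.

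On day 1 the Id genes, Smad6 and Smad9 were higher in KO cells, while the receptors Bmpr1a and Bmpr2 moved little and Bmpr1b was nearly lost. Of 10 members, 8 were higher and 2 lower, against 30.6% higher and 30.2% lower of 15368 genes tested (60.8% in all). The members' median log2 fold change was 1.97, against 0.012 for all genes. Since the members were chosen with earlier results of these data known, comparisons with all genes are descriptive only. On day 14 most directions were turned. Of 9 tested members, 6 were lower in KO cells and 2 higher, against 23.7% lower and 22.7% higher of 14905 genes (46.4% in all), with a median of -1.44, against -0.0015 for all genes. Id1, Id2, Id3, Id4, Smad6 and Smad9 were higher on day 1 and lower on day 14, as were 13.8% of 14503 genes tested on both days. Bmpr1a was lower on day 1 and higher on day 14, as were 13.0%. Bmpr2 was higher on both days, as were 2.84%, and no member was lower on both, as 3.01% were.

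**Figure D1:**
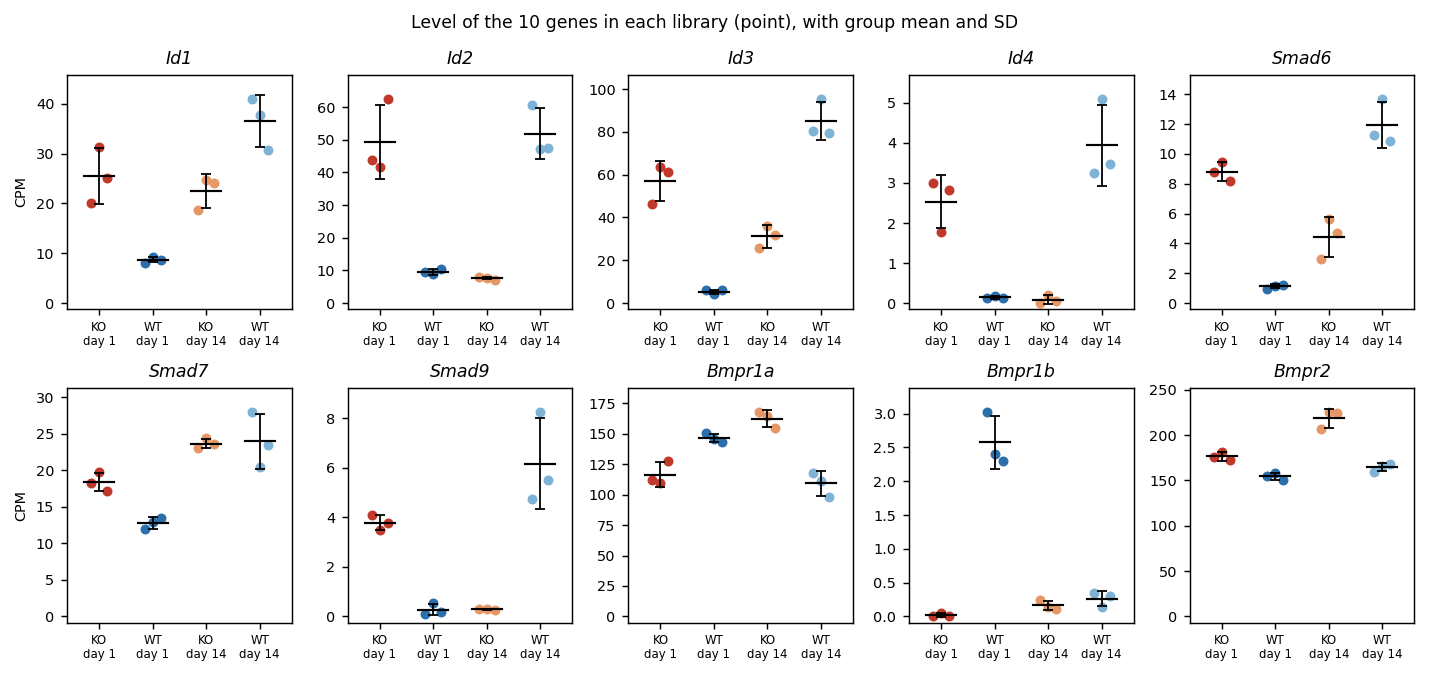
Level of each of the 10 genes in CPM (vertical axis, from 0, own scale per gene) in the 12 libraries (points), with the mean (line) and SD (bar) of 3 libraries per group. Id2, Id3, Id4, Smad6 and Smad9 are high in KO on day 1 and WT on day 14, and Bmpr1b is high in WT on day 1.

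Bmpr1a encodes the type I receptor ALK3. On day 1 it had 112, 109 and 128 CPM in KO cells, against 150.5, 146 and 143 CPM in WT cells. On day 14 it had 168, 165 and 154 CPM in KO cells, against 118, 111 and 98.3 CPM in WT cells. The groups did not overlap on either day, with KO below WT on day 1 and above it on day 14. Its log2 fold change was -0.32 ± 0.066 (SE) on day 1 (edgeR, adjusted p = 0.000919) and 0.56 ± 0.094 on day 14 (adjusted p = 0.00131). The KO effect, taken as the log2 fold change on day 14 minus that on day 1, changed by 0.90 ± 0.12 (adjusted p = 9.7e-06). With library size as the only scaling the day 1 value was -0.20. KO on day 14 (162 ± 6.93 CPM, SD, n = 3) and WT on day 1 (147 ± 3.61 CPM) were the high groups, without a difference past edgeR's test (adjusted p = 0.158). KO on day 1 (116 ± 10.1 CPM) and WT on day 14 (109 ± 10.1 CPM) were the low groups, also without one (adjusted p = 0.503). An antisense gene, Gm17110, shares 290 bases of exon with Bmpr1a in GENCODE M21, and since the counting is not stated to use strand, their reads cannot be told apart.

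Bmpr2 encodes the type II receptor. Day 1 libraries held 176, 182 and 172 CPM in KO cells, against 155, 159 and 150.1 CPM in WT cells. Day 14 libraries held 206, 225 and 224 CPM in KO cells, against 159, 166 and 169 CPM in WT cells. KO lay above WT without overlap on both days. Its log2 fold change was 0.20 ± 0.053 on day 1 (edgeR, adjusted p = 0.00554) and 0.40 ± 0.08 on day 14 (adjusted p = 0.00333). Without WT replicate 3 the day 1 value was 0.17 and no longer passed (adjusted p = 0.0513). The KO effects of the days differed by 0.22 (95% interval 0.019 to 0.41), which did not pass (adjusted p = 0.0549). With library size as the only scaling, the log2 fold change was 0.32 on day 1 and 0.33 on day 14, and the difference was 0.0057. KO on day 14 was the highest group at 219 ± 10.6 CPM (SD, n = 3). KO on day 1 (177 ± 4.66 CPM), WT on day 14 (165 ± 4.69 CPM) and WT on day 1 (154 ± 4.23 CPM) followed, and neighbours among these 3 groups did not differ past edgeR's test (adjusted p = 0.346 and 0.252).

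Bmpr1b encodes the type I receptor ALK6. It was seen above a few counts in WT on day 1 alone. On day 1 the KO libraries held 0, 1 and 0 counts and the WT libraries 72, 68 and 58 counts. Relative to library totals, WT exceeded KO by 145-fold (95% exact counting interval 25.7 to 5744, which covers counting error only). The fitted log2 fold change was -6.78 (edgeR, adjusted p = 8.42e-07), and -8.89 without KO replicate 2, which holds the single count. On day 14 the libraries held 4, 2 and 2 counts in KO and 7, 2 and 6 counts in WT. That was too few for the test of that day, and the ratio of WT over KO was 1.69 (counting interval 0.673 to 4.60). In WT cells the gene was lower on day 14 than on day 1 (log2 fold change -3.21 ± 0.44, edgeR, adjusted p = 2.05e-05). In KO cells it was higher on day 14, with 8 counts in all, than on day 1, with 1 count, a ratio of 9.20 (counting interval 1.23 to 408; adjusted p = 0.0252). That call was lost without KO replicate 1 or 3 of day 1 (adjusted p = 0.0739 and 0.0816) or KO replicate 1 of day 14 (0.0946), and the fitted value of 2.82 was 4.76 without KO replicate 2 of day 1. The KO effect changed by 6.03 ± 1.07 between the days (adjusted p = 0.000182), and by 7.95 without that library.

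**Figure D2:**
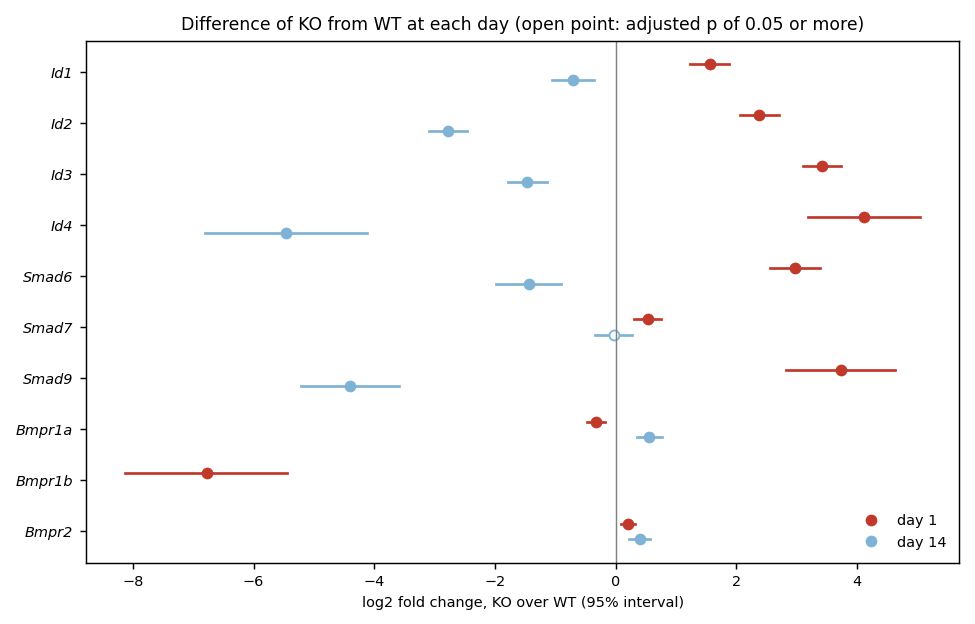
Log2 fold change of KO over WT (horizontal axis) with its 95% interval for each gene on day 1 and day 14 (colours as in the legend), from the fit of each day's 6 libraries; filled points passed an adjusted p of 0.05. The 4 Id genes, Smad6 and Smad9 lie above 0 on day 1 and below 0 on day 14, and Bmpr1b was not tested on day 14.

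Smad9 carries BMP signals beside Smad1 and Smad5. On day 1 it had 4.11, 3.504 and 3.75 CPM in KO cells, against 0.0839, 0.531 and 0.198 CPM in WT cells, the WT values from 2, 15 and 5 counts. On day 14 it had 0.304, 0.282 and 0.270 CPM in KO cells, against 4.75, 8.24 and 5.49 CPM in WT cells, the KO values from 5, 4 and 5 counts. KO was the high group on day 1 and the low one on day 14, with no overlap. Its log2 fold change was 3.73 ± 0.42 on day 1 (edgeR, adjusted p = 5.49e-06), and 4.68 without WT replicate 2. The day 14 value was -4.40 ± 0.36 (adjusted p = 2.35e-05). The KO effect changed by -8.12 ± 0.59 (adjusted p = 1.51e-08), and by -9.06 without WT replicate 2 of day 1. The low groups, KO on day 14 and WT on day 1, did not differ past edgeR's test (adjusted p = 0.981). The high groups, KO on day 1 and WT on day 14, did not either (adjusted p = 0.163). These high groups did not overlap, and KO on day 1 differed from WT on day 14 by -0.69 ± 0.31 (log2). Without WT replicate 1 of day 14 that value was -0.84 and passed edgeR's test (adjusted p = 0.0365). Over all libraries left out in turn it ran from -0.84 to -0.44.

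Smad6 encodes an inhibitor that acts mainly on the BMP branch. Its day 1 level was 8.77, 9.45 and 8.19 CPM in KO cells, against 0.965, 1.17 and 1.23 CPM in WT cells. Its day 14 level was 2.98, 5.65 and 4.69 CPM in KO cells, against 11.3, 13.7 and 10.9 CPM in WT cells. The groups were apart on both days, in opposite directions. Its log2 fold change was 2.97 ± 0.19 on day 1 (edgeR, adjusted p = 2.93e-08) and -1.44 ± 0.24 on day 14 (adjusted p = 0.0012), and the KO effect changed by -4.39 ± 0.30 (adjusted p = 8.7e-09). KO on day 1 differed from WT on day 14 by -0.44 ± 0.19 (log2), without overlap but not past the test (adjusted p = 0.157). KO on day 14 stood above WT on day 1 by 1.97 ± 0.24 (adjusted p = 7.1e-06).

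Smad7 encodes an inhibitor of both the BMP and the TGF-beta branch. On day 1 it had 18.2, 19.7 and 17.2 CPM in KO cells, against 11.96, 12.9 and 13.5 CPM in WT cells. The day 14 values were 23.1, 24.4 and 23.5 CPM in KO cells, against 27.9, 20.4 and 23.5 CPM in WT cells. KO lay above WT on day 1, and the groups overlapped on day 14. The fold change was 0.53 ± 0.10 (log2) on day 1 (edgeR, adjusted p = 0.000658). The day 14 value was -0.033 with a 95% interval of -0.34 to 0.27 (adjusted p = 0.863), and 0.069 without WT replicate 1. The KO effect changed by -0.54 ± 0.17 (adjusted p = 0.0115). Smad7 was higher on day 14 than on day 1 in KO cells, by 0.36 ± 0.12 (adjusted p = 0.018), and in WT cells, by 0.91 ± 0.12 (adjusted p = 1.54e-05). The call in KO cells was lost without KO replicate 3 of day 1 (adjusted p = 0.058), without KO replicate 2 or 3 of day 14 (0.0654 and 0.0529), or with library size as the only scaling (0.0598). Each day has a count table of its own, so culture time and table cannot be told apart in any comparison between days.

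Id1 is a widely used readout of BMP signalling. Its day 1 level was 20.04, 31.3 and 25.1 CPM in KO cells, against 8.14, 9.20 and 8.72 CPM in WT cells. Its day 14 level was 18.6, 24.8 and 24.1 CPM in KO cells, against 41.0, 37.8 and 30.8 CPM in WT cells. KO was above WT on day 1 and below it on day 14, without overlap. The log2 fold change was 1.56 ± 0.15 on day 1 (edgeR, adjusted p = 1.18e-06) and -0.71 ± 0.15 on day 14 (adjusted p = 0.00461), and the KO effect changed by -2.25 ± 0.23 (adjusted p = 7.27e-07). Within KO cells day 14 differed from day 1 by -0.18 (95% interval -0.52 to 0.16, adjusted p = 0.362), and within WT cells day 14 stood above day 1 by 2.07 ± 0.17 (adjusted p = 9.4e-08).

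Id2 encodes a protein that also binds the retinoblastoma protein. On day 1 it had 43.7, 41.8 and 62.5 CPM in KO cells, against 9.40, 8.85 and 10.4 CPM in WT cells. On day 14 it had 7.85, 7.84 and 7.23 CPM in KO cells, against 60.8, 47.3 and 47.6 CPM in WT cells. These form a high and a low pair of groups with a wide gap. The log2 fold change was 2.38 ± 0.15 on day 1 (edgeR, adjusted p = 1.94e-08) and -2.78 ± 0.14 on day 14 (adjusted p = 1.8e-06), and the KO effect changed by -5.14 ± 0.23 (adjusted p = 6.52e-11). Neither the high groups, KO on day 1 and WT on day 14, nor the low groups, KO on day 14 and WT on day 1, differed past the test (adjusted p = 0.78 and 0.124).

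Id3 is a further inhibitor of bHLH factors. Day 1 libraries held 46.5, 63.6 and 61.4 CPM in KO cells, against 5.96, 4.35 and 5.91 CPM in WT cells. Day 14 libraries held 25.6, 35.9 and 32.0 CPM in KO cells, against 80.3, 95.3 and 79.5 CPM in WT cells. All 4 groups were apart from each other. The log2 fold change was 3.42 ± 0.15 on day 1 (edgeR, adjusted p = 5.89e-10) and -1.46 ± 0.14 on day 14 (adjusted p = 5.53e-05), and the KO effect changed by -4.86 ± 0.22 (adjusted p = 1.08e-10). KO on day 1 differed from WT on day 14 by -0.57 ± 0.14 (adjusted p = 0.0233), a call that was lost without KO replicate 1 or 3 of day 1 (0.0965 and 0.0575) or WT replicate 2 of day 14 (0.0979).

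Id4 is studied mostly in the nervous system. On day 1 the libraries held 54, 32 and 58 counts in KO and 3, 5 and 3 counts in WT, which is 2.998, 1.78 and 2.83 CPM in KO cells, against 0.126, 0.177 and 0.119 CPM in WT cells. On day 14 they held 0, 3 and 1 counts in KO and 65, 73 and 70 counts in WT, which is 0, 0.212 and 0.0539 CPM in KO cells, against 3.25, 5.10 and 3.46 CPM in WT cells. Counts were thus near 0 in KO on day 14 and in WT on day 1. The log2 fold change was 4.12 ± 0.43 on day 1 (edgeR, adjusted p = 2.72e-06) and -5.47 ± 0.59 on day 14 (adjusted p = 0.000114), and -6.80 without KO replicate 2 of day 14. The ratio of WT over KO on day 14 was 46.9 (95% counting interval 18.0 to 174). The KO effect changed by -9.57 ± 0.71 (adjusted p = 2.05e-08), and by -10.94 without that library. The antisense genes A330033J07Rik and Gm49291 share 82 and 171 bases of exon with Id4 in GENCODE M21, and reads of these genes cannot be told apart.

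Levels of different genes can be compared only per length, here as CPM per kb of merged exons in GENCODE M21 (mean ± SD, n = 3). Merged exons span all annotated transcripts, 17983 bases for Bmpr2 and 1160 bases for Id1. Close ranks therefore depend on this choice of length. On day 1 Id3 led in KO cells with 31.9 ± 5.21 CPM per kb, followed by Id1 at 22.0 ± 4.87, Id2 at 20.2 ± 4.70 and Bmpr1a at 18.3 ± 1.59. In WT cells on day 1 the receptors led, Bmpr1a with 23.1 ± 0.569 and Bmpr2 with 8.59 ± 0.235 CPM per kb, before Id1 at 7.49 ± 0.459. On day 14 Bmpr1a led in KO cells with 25.6 ± 1.09 CPM per kb, before Id1 at 19.4 ± 2.91 and Id3 at 17.4 ± 2.91. Id3 led in WT cells on day 14 with 47.5 ± 4.97 CPM per kb, before Id1 at 31.5 ± 4.49 and Id2 at 21.3 ± 3.15. Smad9 stayed at or below 1.15, Id4 at or below 1.02 and Bmpr1b at or below 0.432 CPM per kb in every group.

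**Figure D3:**
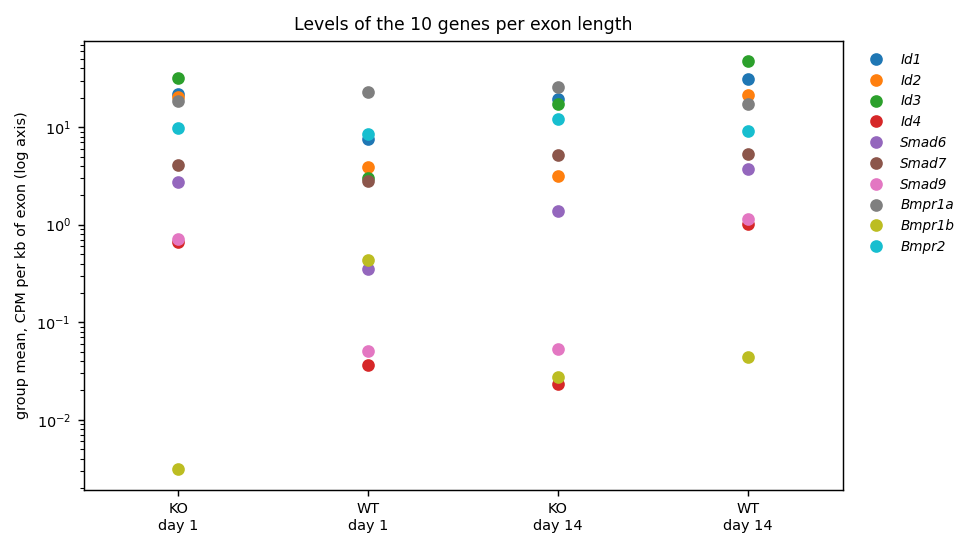
Group mean of each gene in CPM per kb of merged exon (vertical log axis) in the 4 groups of 3 libraries. Id1, Id2 and Id3 lie above Bmpr1a in KO on day 1 and WT on day 14, and below it in WT on day 1 and KO on day 14.

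Over culture, 7 members were higher and 2 lower on day 14 than on day 1 in WT cells, against 25.8% higher and 26.1% lower of 15973 genes (51.9% in all). Id4 (4.72 ± 0.46), Smad9 (4.42 ± 0.40, and 5.36 without WT replicate 2 of day 1), Id3 (3.98 ± 0.17), Smad6 (3.40 ± 0.23) and Id2 (2.44 ± 0.16) rose in WT cells by the log2 values given. Bmpr2 did not pass in WT cells (0.093, edgeR, adjusted p = 0.252), but did with library size as the only scaling (0.22, adjusted p = 0.0116), which moved the median of all genes by 0.13. In KO cells 4 members were higher and 5 lower on day 14, against 26.9% higher and 27.9% lower (54.8% in all). Id4 (-4.85 ± 0.56, and -6.21 without KO replicate 2 of day 14), Smad9 (-3.70 ± 0.44), Id2 (-2.69 ± 0.16), Smad6 (-0.99 ± 0.20) and Id3 (-0.88 ± 0.15) were the members that fell. The KO effect changed between the days for 9 of the 10 members, 2 upward and 7 downward, against 29.5% upward and 30.5% downward of all genes (60.1% in all).

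Across genotype and day together, KO on day 1 and WT on day 14 differed in 2 members, Id3 and Bmpr1b, both lower in KO, against 5.89% lower and 3.89% higher of all genes (9.78% in all). The call of Bmpr1b rests on 1 count in KO and 15 counts in WT, a ratio of WT over KO of 15.6 (95% counting interval 2.39 to 654). It was lost without KO replicate 1 or 3 of day 1 or WT replicate 3 of day 14 (adjusted p = 0.0785, 0.0957 and 0.0665, edgeR), and the fitted value of -3.53 was -5.48 without KO replicate 2 of day 1. Id1 (-0.52, adjusted p = 0.0507) and Smad7 (-0.38, adjusted p = 0.0536) lay near the threshold. KO on day 14 and WT on day 1 differed in 6 members, against 50.7% of all genes. Id1 (1.37 ± 0.17), Id3 (2.53 ± 0.17), Smad6 (1.97 ± 0.24), Smad7 (0.89 ± 0.12) and Bmpr2 (0.50 ± 0.065) were higher in KO on day 14 (24.6% of all genes), and Bmpr1b was lower (-3.93 ± 0.48; 26.1% of all genes).

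Other genes of the pathway were followed by lists, and values in brackets are log2 fold changes of KO over WT. The counts of every list are to be read against the shares of all genes tested. On day 1 these were 30.6% higher and 30.2% lower in KO cells, and on day 14 22.7% higher and 23.7% lower. Of 7 tested receptors of the TGF-beta family outside the members, 2 were higher and 3 lower in KO cells on day 1, and of 7 tested on day 14, 4 were higher and 1 lower. Acvrl1, the type I receptor ALK1 that is typical of endothelium, was higher on both days, with 10.8 ± 1.92 CPM in KO cells and 2.80 ± 0.364 CPM in WT cells on day 1 (SD, n = 3; 1.95), and 38.2 ± 2.44 CPM in KO cells and 14.2 ± 3.78 CPM in WT cells on day 14 (1.41). On day 1 the activin receptor gene Acvr1b was higher too (0.27), and Acvr1 (-0.82), the TGF-beta receptor gene Tgfbr2 (-0.50) and the type II receptor gene Acvr2a (-0.29) were lower. On day 14 Acvr1 (0.53) and Acvr2a (0.47) were higher and Acvr2b was lower (-0.68). Of 6 tested co-receptors and decoys, 1 was higher and 4 lower in KO cells on day 1, and of 6 tested on day 14, 2 were higher and 2 lower. Endoglin, Eng, was higher on day 1 (0.70) and lower on day 14 (-0.95). The BMP co-receptor gene Rgmb (-1.56 on day 1 and 0.65 on day 14) and betaglycan, Tgfbr3 (-0.92 and 0.68), had the opposite signs, Rgma was lower on day 1 (-0.78), and Neo1, a receptor of RGM proteins, was lower on both days (-0.46 and -0.42).

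Of 5 tested receptor and common SMADs, 2 were higher and 3 lower in KO cells on day 1, and of 5 tested on day 14, 0 were higher and 1 lower. On day 1 the BMP carrier Smad1 was higher (0.59) and the BMP carrier Smad5 lower (-0.70), beside the TGF-beta carriers Smad2 (0.35) and Smad3 (-0.58) and the common partner Smad4 (-0.16). On day 14 Smad1 alone of these passed (-0.42). Of 14 tested genes listed as SMAD regulators and partners, 5 were higher and 5 lower in KO cells on day 1. Of 14 tested on day 14, 5 were higher and 3 lower. Smurf1, a ubiquitin ligase for BMP SMADs, was higher on day 1 (0.95) and lower on day 14 (-0.59), as was the repressor gene Skil (0.44 and -0.50). On day 1 Lemd3, a SMAD-binding protein of the nuclear envelope, was higher (0.65), and the receptor-binding Fkbp1a (-0.62, and 0.23 on day 14), the repressor Tgif1 (-0.56) and the transcription factor Runx1 (-0.44) were lower. On day 14 the SMAD anchor Zfyve9 (0.63, and -0.40 on day 1), Ylpm1 (0.38, and -0.35 on day 1) and Runx1 (0.34) were higher and Tgif1 was lower (-0.77).

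Of 4 tested BMP ligands, 2 were higher and 1 lower in KO cells on day 1, and of 2 tested on day 14, 0 were higher and 2 lower. Bmp7 had 23.5 ± 2.21 CPM in KO cells and 0.855 ± 0.210 CPM in WT cells on day 1 (4.77), and 1.03 ± 0.352 CPM in KO cells and 27.6 ± 10.7 CPM in WT cells on day 14 (-4.78). Bmp4 had 43.5 ± 2.85 CPM in KO cells and 32.7 ± 1.92 CPM in WT cells on day 1 (0.42), and 6.62 ± 0.994 CPM in KO cells and 52.4 ± 3.31 CPM in WT cells on day 14 (-2.99). Bmp7 was thus high in KO on day 1 and WT on day 14, and Bmp4 was lowest in KO on day 14. Of 11 tested secreted BMP antagonists, 6 were higher and 5 lower in KO cells on day 1, and of 12 tested on day 14, 5 were higher and 4 lower. Noggin, Nog, had 7.65 ± 0.981 CPM in KO cells and 0.140 ± 0.0896 CPM in WT cells on day 1 (5.70), and 0.335 ± 0.107 CPM in KO cells and 7.96 ± 1.56 CPM in WT cells on day 14 (-4.59). Gremlin, Grem1, had 101 ± 10.7 CPM in KO cells and 812 ± 16.9 CPM in WT cells on day 1 (-3.003), and 1030 ± 136 CPM in KO cells and 94.9 ± 2.52 CPM in WT cells on day 14 (3.43). These antagonists had opposite signs on each day. Follistatin, Fst, had the signs of Nog (2.03 on day 1 and -1.16 on day 14). Fstl3, a relative of follistatin (1.08 and -0.999), and chordin, Chrd (0.51 and -2.42), had these signs too, and Bmper (-2.15 and 1.13) and Fstl1 (-0.55 and 1.37) had the signs of Grem1. On day 14 Chrdl1 (3.55, from 88 counts in KO and 8 in WT) was higher.

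**Figure D4:**
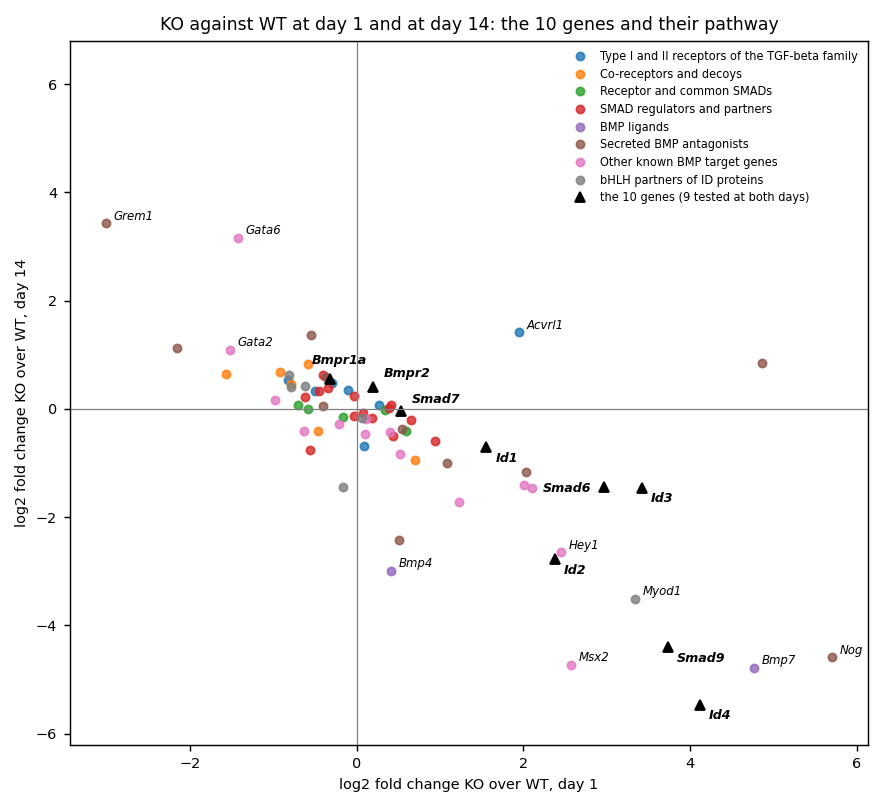
Log2 fold change of KO over WT on day 1 (horizontal axis) and on day 14 (vertical axis) for the members tested on both days (black triangles, 9 genes) and for the tested genes of 8 pathway lists (coloured points). Id4, Smad9, Bmp7 and Nog lie at the lower right, Grem1 at the upper left, and Acvrl1 and Bmpr2 above 0 on both axes.

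Of 15 tested genes listed as BMP targets beside the members, 8 were higher and 4 lower in KO cells on day 1. Of 14 tested on day 14, 2 were higher and 7 lower. Among all genes tested, 30.6% were higher and 30.2% lower on day 1, and 22.7% higher and 23.7% lower on day 14. The homeobox gene Msx2 (2.57 on day 1 and -4.72 on day 14), the Notch and BMP target Hey1 (2.46 and -2.65), the bHLH gene Atoh8 (2.10 and -1.46) and the iron exporter gene Slc40a1 (1.23 and -1.72) had the signs of the Id genes. On day 1 the transcription factor genes Gata2 (-1.51), Gata6 (-1.42) and Snai1 (-0.97) were lower. On day 14 Gata6 (3.16) and Gata2 (1.09) were higher. The list's median was 0.40 on day 1 and -0.45 on day 14. Of 6 tested bHLH genes that pair with ID proteins or share their partners, 1 was higher and 3 lower in KO cells on day 1, and of 6 tested on day 14, 2 were higher and 2 lower. The muscle regulator Myod1 had 33.4 ± 5.999 CPM in KO cells and 3.32 ± 0.205 CPM in WT cells on day 1 (3.34), and 4.56 ± 1.02 CPM in KO cells and 51.8 ± 12.4 CPM in WT cells on day 14 (-3.51). The E protein genes Tcf4 (-0.80 on day 1 and 0.62 on day 14) and Tcf12 (-0.62 and 0.42) had signs opposite to those of the Id genes on each day. Twist2 was lower on day 1 (-0.79) and Scx on day 14 (-1.44).

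The members were also compared by how closely they ran over the 12 libraries, as the root mean square difference of log2 CPM after centring each gene. Among the members, Id3 ran closest to Smad6 (0.334) and Id4 to Smad9 (0.556), while Bmpr1a and Bmpr2 were 0.24 apart. The search covered 9510 genes whose mean log2 CPM was 3 or more. Id1 ran closest to Zc3h8 (0.221) and Hsph1 (0.236), Id2 to Plcxd2 (0.216) and Dcun1d5 (0.242), Id3 to Trim55 (0.357) and Ctgf (0.384) and Id4 to Foxf1 (0.471) and Selp (0.474). Smad6 ran closest to Col11a2 (0.309) and Npr2 (0.325), Smad7 to Naf1 (0.116) and Grwd1 (0.118) and Smad9 to Selp (0.408) and Myod1 (0.503). Bmpr1a ran closest to Fam111a (0.0455) and Pign (0.0748), Bmpr2 to BC005537 (0.0527) and Mesd (0.0573) and Bmpr1b to Pmvk (0.764). The distance follows the range of a gene as well as the order of its groups, so genes of small range lie close to each other whatever their order: the SD of the log2 CPM over the libraries was 0.26 for Bmpr1a and 0.201 for Bmpr2, about their distance.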

How the data were processed

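The authors deposited raw, whole-number counts for each gene name, with a table for each day. RNA was extracted with TRIzol and sequenced from NEBNext Ultra RNA libraries, per the labels' protocols. The genome build was mm9, per the submitters' processing notes. Neither the aligner nor the counter, annotation or strand setting is given in the sources used here. Columns were matched to samples by genotype (CTR taken as WT) and replicate number. Lines with a repeated name and the same counts were dropped (43 and 53).

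Counts were tested in R 4.3.3 by edgeR 4.0.16: TMM scaling, filterByExpr, quasi-likelihood test, p-values adjusted by Benjamini-Hochberg over all genes tested, threshold 0.05. KO and WT of a day were compared in that day's 6 libraries, and all other contrasts came from a fit of the 12 libraries, which also gave the CPM. The SE is the log2 fold change divided by the root of the F statistic. The members, the 8 pathway lists and the marker lists were chosen with earlier results of these data known. List genes are named where called and where the mean log2 CPM was 0 or more, up to 3 rises and 3 falls per list for KO against WT on each day; for the other comparisons they are not described here. The 2 closest genes of each member are named, predicted genes passed over, and 1 of them is not reported here. Promoters are from RefSeq (GRCm38.p6) and lengths from GENCODE M21. Alternatives were RLE size factors, library size alone, DESeq2 1.42.0, no filter, 1 CPM in 3 libraries, a replicate block, all 12 libraries in each day's fit, and leaving out each library.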

Additional observations from a re-analysis of the deposited data

Results flagged for a closer look

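The KO effect differed between the days, by the interaction test of edgeR's fit over 12 libraries, for 9 of the 10 members and for Nr4a3. As the log2 fold change on day 14 minus that on day 1, the difference was -2.25 for Id1, -5.14 for Id2, -4.86 for Id3 and -9.57 for Id4. It was -4.39 for Smad6, -0.54 for Smad7 and -8.12 for Smad9. It was 0.90 for Bmpr1a, and 6.03 for Bmpr1b, which had 1 to 198 counts per group. For Nr4a3, lower in KO cells on both days, it was -1.23. The median over all genes tested was -0.012, and 60.1% were called.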

How the results depend on the processing

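Of the alternative values for single genes, 1227 kept direction and side of the threshold, 15 passed newly, 14 no longer passed and 7 changed sign. The sign changes concern values without a call, each on leaving out 1 library: Smad7 for KO against WT on day 14 (-0.13 to 0.069 over the libraries left out), Smad9 for KO on day 14 against WT on day 1 (-0.38 to 0.97) and Id2 for KO on day 1 against WT on day 14 (-0.29 to 0.062). In the last comparison 2 members were called, but 4 with RLE size factors, 4 with 1 CPM in 3 libraries and 4 with DESeq2, where Id1 and Smad7 passed as well, and 0 to 4 members and 576 to 5538 genes on leaving out 1 library; the cause was not tested. For KO against WT, leaving out 1 library gave 9 to 10 members and 8163 to 9991 genes on day 1, and 8 members and 5182 to 9209 genes on day 14. With library size alone the median of all genes moved by 0.12 for KO against WT on day 1, 0.13 for WT between days and -0.21 for the changed KO effect, where 61.7%, 62.7% and 37.9% of calls were higher, against 50.4%, 49.7% and 49.2% with TMM. The changed KO effect on Bmpr2 passed with DESeq2 (0.21, adjusted p = 0.0442), but was 0.0057 with library size alone (adjusted p = 0.964). Replicate numbers did not pair the libraries (correlations of same-numbered deviations -0.07 to 0.10); the replicate block called 9090 genes on day 1 and 6716 on day 14, against 9341 and 6918, and among the members it changed the call of Id1 alone, for KO on day 1 against WT on day 14 (-0.54, adjusted p = 0.0378). Depth limits Bmpr1b, Id4 and Smad9, with few counts in several libraries.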
